A study of Homo sapiens with 6 samples.

Results

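Apolipoproteins and the protein that loads lipid onto APOB were followed here in Hep3B cells: APOA1, APOA2, APOB, APOC1, APOC3, APOE, APOH, APOM and MTTP. The members were the probe sets that the platform's annotation assigns to 1 of these 9 symbols and to no other gene, which gave 19 of the 54613 probe sets on the array other than controls, for 9 of 19775 annotated genes. The comparison was between 3 arrays of cells carrying a decoy for miR-17 (miR-17 TuD) and 3 arrays of cells carrying a negative control decoy (NC TuD). The measured values did not enter the choice of members, but the set was proposed with earlier results of these data known.

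Hep3B is an established human hepatocellular carcinoma line that still makes many plasma proteins of the hepatocyte. A tough decoy (TuD) is a short structured RNA with exposed sites that bind and hold a microRNA family, so that it no longer acts on its messenger RNAs. Both groups were Hep3B cells exposed to lentiviral particles for 48 hours (multiplicity of infection 5), in medium with polybrene at 10.0 µg/mL, and then selected with puromycin at 1.0 µg/mL. Resistant colonies were pooled after 2 weeks, so each group was a pool of colonies from the parental line, and both groups carry a vector and its resistance gene. Each sample description also carries a code, 72HR_PLUSDOX in the decoy group and 72HR_NODOX in the control group. The labels do not explain it, and because it follows the group exactly, the decoy and whatever the code stands for cannot be told apart. The labels number the replicates 1 to 3 without saying that they came from separate cultures, so each p-value rests on a spread between samples that may be technical only. These are bulk RNA samples, in which fewer cells expressing a gene and less RNA per cell cannot be told apart. Neither mature miR-17 nor any protein or secreted lipoprotein was measured here.

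Lipoproteins carry cholesterol and triglyceride through the blood, and their protein coats are made mostly by hepatocytes and enterocytes. APOB is the single large protein wrapped around each very low density lipoprotein particle, and MTTP, the microsomal triglyceride transfer protein, loads lipid onto it in the endoplasmic reticulum. APOA1 and APOA2 are the main proteins of high density lipoprotein (HDL). APOC1, APOC3 and APOE move between particles and set how fast they are broken down or taken up. In the genome APOC3 lies between APOA4 and APOA1 on chromosome 11, and APOC1 lies next to APOE on chromosome 19, in the RefSeq gene order.

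The decoy is aimed at the miR-17 family, whose members share the seed that pairs with target messenger RNAs. The mature sequences of 6 family members are shown, from RefSeq on the GRCh38.p14 build, to make the shared seed visible, with bases 2 to 8 in capitals. All 6 carry 1 seed, AAAGUGC. None of the values below measures pairing of these microRNAs with a member's transcript.
hsa-miR-17-5p: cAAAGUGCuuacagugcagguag
hsa-miR-20a-5p: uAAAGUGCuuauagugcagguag
hsa-miR-20b-5p: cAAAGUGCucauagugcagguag
hsa-miR-93-5p: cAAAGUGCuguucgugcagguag
hsa-miR-106a-5p: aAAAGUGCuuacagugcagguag
hsa-miR-106b-5p: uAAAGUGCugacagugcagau

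The values are the authors' log2 intensities, and every difference is miR-17 TuD minus NC TuD on that scale. The array medians ran from 2.75 to 2.78, and 34.9% to 35.4% of probe sets on each array were listed at the lowest value, 2.12. Correlations between arrays over all probe sets were 0.9989 to 0.9993 within a group and 0.9977 to 0.9984 between groups. The gap between the 3′ and 5′ control probe sets, a sign of RNA integrity, differed between the groups by 0.0038 for GAPDH (exact permutation p = 0.8, 2-sided) and by -0.019 for ACTB (exact permutation p = 0.1, the smallest that 3 against 3 arrays can give).

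All 9 genes had at least 1 probe set that was lower in miR-17 TuD cells on every array. Of the 19 probe sets, 17 lay above the filter on low values and were tested, 14 of them fell (limma, adjusted p under 0.05 over 32768 probe sets) and none rose, also at an unadjusted p under 0.05, where the counts were 16 lower and 0 higher. Over all probe sets tested, 2.48% fell and 3.35% rose, 5.83% together. These shares include 9808 probe sets with a mean up to 5, of which 0.10% fell. By level, 8, 6 and 2 members had means of 8 to 11, 11 to 14 and above 14. At these levels 4.14%, 4.74% and 3.49% of all probe sets tested fell, and 5.33%, 7.43% and 8.66% rose. The groups did not overlap, with miR-17 TuD lower, for 16 of the 17, against 13.6% of all probe sets tested. The median difference of the 17 was -0.40, beside a median of 0.00 over all probe sets. Only 101 of all probe sets tested both passed the adjusted threshold and were lower by at least 1.5-fold. Of these, 6 were members, from APOA1, APOB, APOC3 and APOM. The remaining 2 members, 1 for APOA1 and 1 for APOC3, were listed at 2.12 and 2.13 on all 6 arrays and were not tested.

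**Figure D1:**
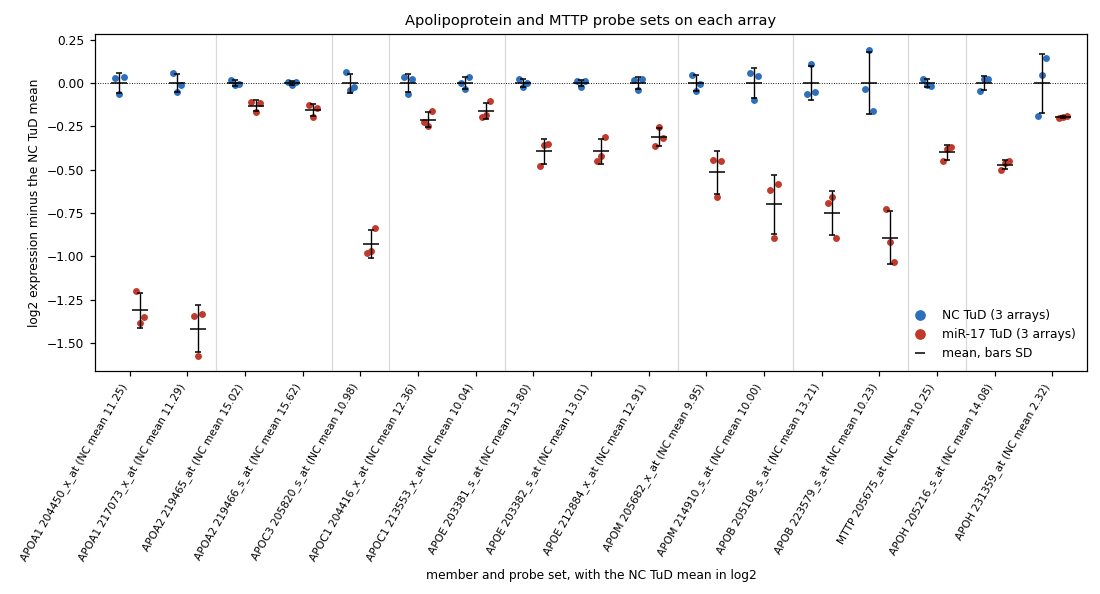
Log2 value of each tested member probe set on each array minus the NC TuD mean of that probe set, which stands beside its name. Points are arrays, 3 per group, with the mean and SD of each group, and the red miR-17 TuD points lie farthest below 0 for APOA1, whose differences were -1.31 and -1.42, and nearest to it for APOA2, whose differences were -0.13 and -0.15.

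The genes of the HDL proteins held both the largest and the smallest falls in RNA of the set. APOA1, which activates cholesterol esterification and accepts cholesterol from cells, read 10.06, 9.87 and 9.90 in miR-17 TuD replicates 1 to 3 and 11.28, 11.19 and 11.29 in NC TuD (probe set 204450_x_at). The lowest NC TuD array was above the highest miR-17 TuD array by more than the spread within either group (SD 0.10 and 0.056, n = 3 each). The difference was -1.31 (SE 0.062, 95% interval -1.47 to -1.15), a 2.48-fold fall to 40.3% of the control, with an adjusted p of 0.0064 (limma). The other tested probe set, 217073_x_at, gave 9.94, 9.71 and 9.95 against 11.34, 11.24 and 11.28. Its groups were as far apart, and it fell by 1.42 on the log2 scale, 2.67-fold (SE 0.078, adjusted p = 0.00783). These were the 7th and 5th lowest differences of all 32768 probe sets tested. Both carry the suffix x_at, which marks probe sets whose probes can also match other transcripts, and the call for the second ended without NC TuD replicate 1 (adjusted p = 0.0507).

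APOA2, the second protein of HDL, moved far less. It read 15.50, 15.43 and 15.48 against 15.63, 15.61 and 15.63 on 219466_s_at, a difference of -0.15 (SE 0.020, 95% interval -0.21 to -0.10, 1.11-fold, adjusted p = 0.0277). Its other probe set, 219465_at, had 14.91, 14.85 and 14.91 against 15.04, 15.01 and 15.01 and fell by 0.13 (SE 0.020, adjusted p = 0.0408). On both, every miR-17 TuD array was below every NC TuD array, with within-group SDs of at most 0.034. These values are near the top of the array's range, where the highest value was 16.3. Of the 716 probe sets with a mean above 14, 3.49% fell, and the median size of a difference was 0.041, against 0.11 for probe sets between 8 and 11. Whether the scale is compressed for APOA2 was not tested. The call of 219465_at was lost when any 1 of the 6 arrays was left out (adjusted p up to 0.132), and that of 219466_s_at without any 1 NC TuD array or miR-17 TuD replicate 3 (up to 0.107).

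APOM, a lipocalin of HDL that carries sphingosine 1-phosphate, fell on both of its probe sets. On 214910_s_at the values were 9.38, 9.11 and 9.42 against 10.06, 9.90 and 10.04, a difference of -0.70 (SE 0.10, 95% interval -0.97 to -0.43, 1.62-fold, adjusted p = 0.0362). On 205682_x_at they were 9.50, 9.29 and 9.50 against 9.99, 9.90 and 9.94, a difference of -0.52 (SE 0.070, 1.43-fold, adjusted p = 0.0311). The groups did not overlap on either, and miR-17 TuD replicate 2 was the lowest array on both. Neither call held without any 1 NC TuD array, or without miR-17 TuD replicate 1 or 3 (adjusted p up to 0.129 and 0.113).

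Among the genes of the proteins that exchange between particles, APOC3 had the largest fall. APOC3, an inhibitor of triglyceride breakdown by lipoprotein lipase, read 10.00, 10.02 and 10.14 in miR-17 TuD and 11.04, 10.94 and 10.96 in NC TuD (205820_s_at). All 3 miR-17 TuD arrays were lower than all 3 NC TuD arrays. The difference was -0.93 (SE 0.052, 95% interval -1.07 to -0.79), 1.90-fold, to 52.5% of the control (adjusted p = 0.00811).

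APOE, the ligand by which remnant particles are taken up through the LDL receptor family, fell on all 3 of its probe sets by 0.31 to 0.39 on the log2 scale. On 203381_s_at it read 13.32, 13.44 and 13.45 against 13.82, 13.77 and 13.80. No miR-17 TuD array reached any NC TuD array on any of the 3. The differences were -0.39 (SE 0.040, adjusted p = 0.019), -0.39 (SE 0.041, adjusted p = 0.0192) and -0.31 (SE 0.035, adjusted p = 0.022), or 1.24-fold to 1.31-fold. Leaving out any 1 NC TuD array ended all 3 calls, with adjusted p-values up to 0.0809, 0.0833 and 0.0903, and so did leaving out miR-17 TuD replicate 2 for the first and second and replicate 3 for the third.

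APOC1, a small apolipoprotein that inhibits cholesteryl ester transfer, missed the threshold on both probe sets. On 204416_x_at it read 12.13, 12.11 and 12.20 against 12.39, 12.30 and 12.38, a difference of -0.21 (SE 0.037, 95% interval -0.31 to -0.11, adjusted p = 0.051). On 213553_x_at it read 9.85, 9.86 and 9.94 against 10.04, 10.01 and 10.08, a difference of -0.16 (SE 0.032, 95% interval -0.24 to -0.076, adjusted p = 0.0637). The groups did not overlap on either. Both probe sets are of the x_at kind, and the genome also holds a copy of this gene, so the values may mix transcripts. Under quantile normalization, array weights or a filter at the 60th percentile both passed.

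Of the particle that carries triglyceride out of the liver, the RNA of both the structural protein and its loader fell. APOB read 12.52, 12.55 and 12.32 in miR-17 TuD and 13.15, 13.33 and 13.16 in NC TuD on 205108_s_at. The groups were separated, and the difference of -0.75 (SE 0.085, 95% interval -0.97 to -0.52, 1.68-fold, adjusted p = 0.0225) was the lowest among the 5236 probe sets with a mean between 11 and 14. On 223579_s_at APOB read 9.51, 9.32 and 9.20 against 10.20, 10.43 and 10.07, a difference of -0.89 (SE 0.13, 1.85-fold, adjusted p = 0.0338). MTTP read 9.80, 9.87 and 9.89 against 10.28, 10.24 and 10.24, with no overlap. It fell by 0.40 on the log2 scale (SE 0.027, 95% interval -0.47 to -0.33), to 75.8% of the control (adjusted p = 0.011). The APOB calls were lost without any 1 NC TuD array (adjusted p up to 0.0832 and 0.117), as was that of the single MTTP probe set (up to 0.0574). The call of 223579_s_at also ended without any 1 miR-17 TuD array, and that of 205108_s_at without replicate 1 or 2 of that group.

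APOH, also called beta-2-glycoprotein 1, binds phospholipid and is the main antigen of antiphospholipid antibodies. It read 13.58, 13.62 and 13.63 against 14.03, 14.10 and 14.10 on 205216_s_at. The groups were far apart for their spread (SD 0.026 and 0.040, n = 3 each), and the difference was -0.47 (SE 0.026, 95% interval -0.54 to -0.40, 1.38-fold, adjusted p = 0.00801). Its other probe set, 231359_at, lay near the lowest value of the array at 2.12, 2.13 and 2.14 against 2.14, 2.37 and 2.47. It was the only tested member whose groups overlapped, and it did not pass (adjusted p = 0.308).

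**Figure D2:**
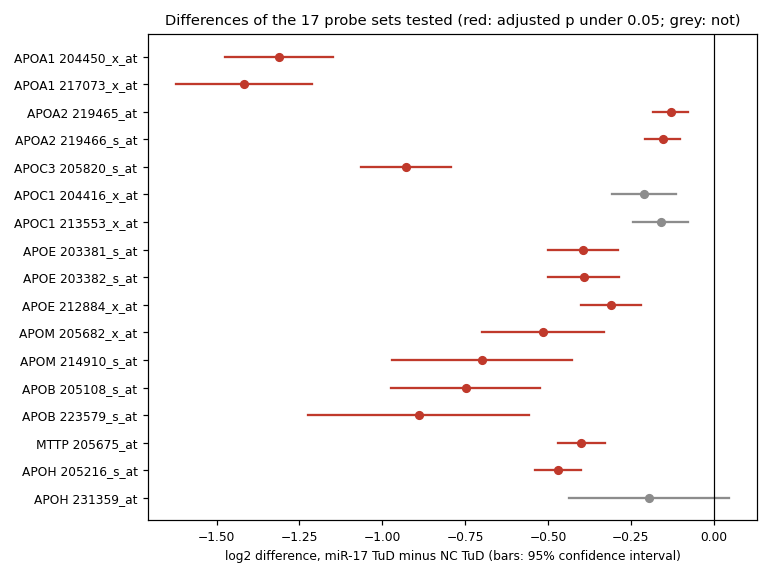
Difference between miR-17 TuD and NC TuD (log2) of each tested member probe set, with its 95% interval from limma, red where the adjusted p is under 0.05 and grey where it is not. The intervals of APOA1 (-1.47 to -1.15 and -1.62 to -1.21) do not reach those of APOA2 (-0.21 to -0.10 and -0.18 to -0.076), and only that of APOH 231359_at spans 0.

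With 1 probe set per gene, the one with the highest mean, all 9 member genes fell over 13949 genes tested, of which 4.6% fell and 6.78% rose. Their median difference was -0.47, against 0.00056 over all genes. The adjusted p-values ran from 0.00338 for APOA1 to 0.0350 for APOC1, which had not passed among all probe sets. Probe sets whose suffix, s_at or x_at, marks probes shared between transcripts made up 14 of the 19 member probe sets. Without them only 3 of the 9 genes kept a probe set above the filter, and 2 of those fell.

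How far the members moved relative to each other was tested on the same arrays, as the value of 1 gene minus that of another, for 6 pairs. For every pair the 3 miR-17 TuD arrays and the 3 NC TuD arrays did not overlap, and the exact permutation test gave p = 0.1 (2-sided, adjusted p = 0.1 over the 6 pairs), the smallest that this design allows, so no pair can pass 0.05. The APOA1 difference was lower than that of its genomic neighbour APOC3 by 0.38, and lower than those of APOB and APOA2 by 0.56 and 1.16, all on the log2 scale. The APOE difference was lower than that of its neighbour APOC1 by 0.18, and the APOB difference was lower than that of MTTP by 0.35. The APOM difference was 0.80 above that of APOA1.

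Within the groups, the members did not all follow the same array. Among the 17 tested probe sets, miR-17 TuD replicate 1 was the lowest of its group for 8, replicate 2 for 7 and replicate 3 for 2. In NC TuD, replicate 2 was the lowest for 12 and replicate 1 the highest for 10. The SD was larger in miR-17 TuD than in NC TuD for 13 of the 17.

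The direction of the members did not hang on 1 array, but many of the calls did. With each array left out in turn, all 17 tested probe sets stayed below 0 in all 6 fits. The number of member probe sets called was 8 or 9 without 1 miR-17 TuD array (8 for replicate 3), but 3 or 4 without 1 NC TuD array (3 for replicate 1). Over all probe sets the count was 145 without NC TuD replicate 1, against 1910 with all arrays. Probe sets 204450_x_at of APOA1, 205820_s_at of APOC3 and 205216_s_at of APOH passed in all 6 fits, with adjusted p-values up to 0.0443, 0.0451 and 0.0453. At gene level APOA1, APOC3, APOH and MTTP passed in all 6, with adjusted p-values up to 0.0300, 0.0307, 0.0293 and 0.0395. The gene-level calls of APOA2, APOB, APOE and APOM ended without any 1 NC TuD array (adjusted p up to 0.0769, 0.0562, 0.0547 and 0.0805). That of APOC1 ended in 5 of the 6 fits, all but the one without miR-17 TuD replicate 3, with adjusted p-values up to 0.114.

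**Figure D3:**
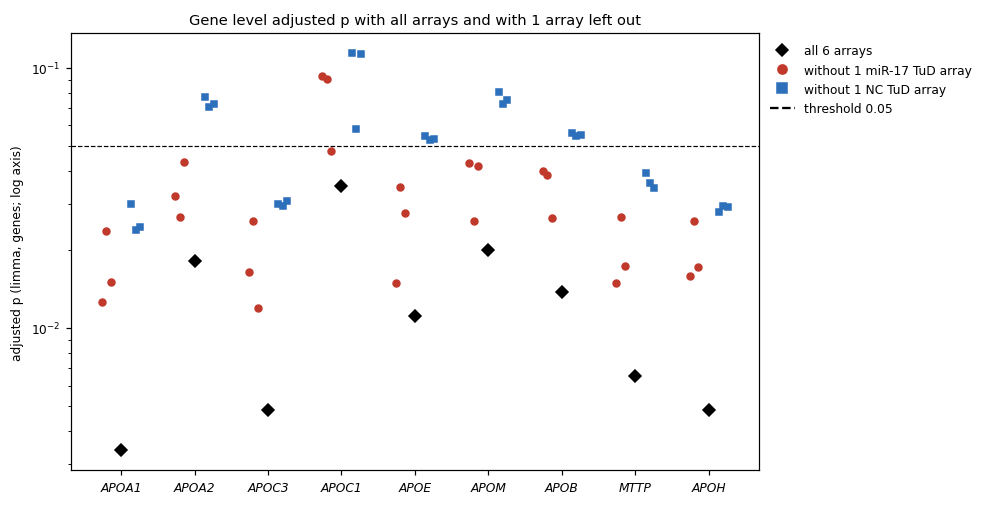
Adjusted p (limma, log axis) of each member gene with all 6 arrays and with each array left out in turn, and a line at the threshold of 0.05. APOA1, APOC3, APOH and MTTP stay under the line in all 6 fits, while the other 5 genes lie above it in each fit that leaves out an NC TuD array, and APOC1 also in 2 of the 3 that leave out a miR-17 TuD array.

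Genes of the rest of the lipoprotein pathway were read from 5 lists, of which 105 genes were tested. Of these 10 fell and 5 rose, or 14.3%, beside 11.4% of all genes, and their median difference was -0.022. Among 11 other apolipoproteins and HDL-bound proteins 1 fell and none rose at the adjusted threshold (limma; 2 lower and 2 higher at an unadjusted p under 0.05). The gene that fell was CLU, which encodes clusterin, or apolipoprotein J. CLU read 13.13, 13.19 and 13.21 against 13.74, 13.72 and 13.77, without overlap. Its difference was -0.57 (SE 0.026, 1.48-fold, adjusted p = 0.00338), and it passed with any 1 array left out. APOA4, which adjoins APOC3 in the genome, read 4.86, 4.85 and 4.72 against 4.38, 5.02 and 4.85, with overlapping groups, a difference of 0.059 (95% interval -0.41 to 0.53, adjusted p = 0.879). APOC2, the activator of lipoprotein lipase, and APOD, a lipocalin, had differences of -0.00017 and -0.029 at values of 3.81 or less (adjusted p = 1 and 0.534). APOL1 and PON1 also read low, with NC TuD means of 3.54 and 2.37. Of probe sets with a mean up to 5, where these genes and APOA4 lie, only 0.10% fell and 0.071% rose, so a missing call says little there.

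The machinery that assembles and secretes APOB particles, in the list of 35 tested genes other than MTTP, was called neither way for most members, with 2 genes lower and 1 higher, a share of 8.57%. PDIA3, a disulfide isomerase of the endoplasmic reticulum, fell by 0.20 on the log2 scale (SE 0.028, 1.15-fold, adjusted p = 0.0209), and SAR1A, a GTPase of the coat that carries cargo out of it, fell by 0.18 (SE 0.028, adjusted p = 0.0282). CALR, the chaperone calreticulin, rose by 0.15 (SE 0.029, adjusted p = 0.0416). The SAR1A call ended without any 1 array (adjusted p up to 0.0982), and those of PDIA3 and CALR without replicate 2 of miR-17 TuD or any 1 NC TuD array (up to 0.0829 and 0.137), that of CALR also without miR-17 TuD replicate 3. With the probe sets of a gene averaged, PDIA3 was at -0.058 (adjusted p = 0.337), CALR at 0.085 (adjusted p = 0.0876) and SAR1A at -0.099 (adjusted p = 0.0449), and without s_at and x_at probe sets CALR was at 0.00083 (adjusted p = 1). P4HB, the subunit that MTTP needs to stay soluble, read 14.59, 14.65 and 14.67 against 14.67, 14.65 and 14.66, a difference of -0.022 (95% interval -0.083 to 0.040, adjusted p = 0.576). SAR1B, the paralogue mutated in chylomicron retention disease, differed by 0.16 (95% interval 0.027 to 0.29, adjusted p = 0.125), and TM6SF2, a factor in the lipidation of these particles, by -0.15 (95% interval -0.39 to 0.080, adjusted p = 0.345).

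Of 12 tested genes for lipoprotein remodelling and lipid export, none passed the adjusted threshold in limma, with 0 lower and 2 higher at an unadjusted p under 0.05. LIPG, the endothelial lipase that acts on HDL, had the largest difference of the 12 and is named after its values were seen. It read 6.59, 6.52 and 7.03 against 5.60, 5.95 and 6.06, a difference of 0.84 (95% interval 0.34 to 1.35, adjusted p = 0.0621). It passed under quantile normalization (adjusted p = 0.0295), median centring (0.0160) and a filter at the 60th percentile (0.0213), and not under the other 6 settings or with any 1 array left out. ABCA1, which gives cholesterol to APOA1, differed by 0.15 (95% interval -0.055 to 0.34, adjusted p = 0.301), ABCG1, an exporter to mature HDL, by -0.046 (95% interval -0.40 to 0.30, adjusted p = 0.875), and LCAT, the cholesterol esterifying enzyme that APOA1 activates, by 0.037 (95% interval -0.049 to 0.12, adjusted p = 0.533).

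Among 17 receptors and uptake factors 1 rose and 1 fell, a share of 11.8%. VLDLR, a receptor for APOE-containing particles, read 8.95, 9.16 and 9.07 against 8.58, 8.54 and 8.68, a rise of 0.46 (SE 0.068, 1.37-fold, adjusted p = 0.0245) that passed only without miR-17 TuD replicate 1 when 1 array was left out (adjusted p up to 0.0963). LRP6, a receptor of the same family that acts in Wnt signalling, fell by 0.36 (SE 0.043, 1.28-fold, adjusted p = 0.0151), a call that was lost when NC TuD replicate 1 or miR-17 TuD replicate 2 was left out (up to 0.0671) and with averaged probe sets, where the difference was -0.12 (adjusted p = 0.116). SCARB1, the HDL receptor, differed by -0.12 (95% interval -0.21 to -0.028, adjusted p = 0.105).

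The list of transcription factors known to act on apolipoprotein genes had the highest share called of the 5, with 6 of 30 tested genes lower and 3 higher, or 30.0%. EGR1, an immediate early factor, read 11.08, 11.36 and 11.21 against 10.04, 10.29 and 10.19. All miR-17 TuD arrays were higher, and the rise of 1.04 (SE 0.10, 2.06-fold, adjusted p = 0.0105) passed with any 1 array left out. RORA, an orphan nuclear receptor with binding sites described at APOA1 and APOC3, read 9.23, 9.23 and 9.07 against 9.81, 9.96 and 9.77. It fell by 0.67 (SE 0.072, 1.59-fold, adjusted p = 0.0127), a call lost without NC TuD replicate 1 (adjusted p = 0.0547), and by 0.33 with averaged probe sets (adjusted p = 0.00946). ONECUT1, a hepatocyte factor also called HNF6, fell by 0.46 (SE 0.045, adjusted p = 0.0105) and lost its call without NC TuD replicate 1 or 2 (up to 0.0536). PROX1, a partner of hepatic nuclear receptors, fell by 0.39 (SE 0.077, adjusted p = 0.0436), and PPARA, the fatty acid sensing receptor, fell by 0.22 (SE 0.043, adjusted p = 0.0441). The PROX1 call ended without any 1 array (adjusted p up to 0.149), and the PPARA call in every such fit except that lacking NC TuD replicate 1 (up to 0.149). Both calls also ended with array weights (adjusted p = 0.0595 and 0.0590) and when s_at and x_at probe sets were dropped (0.0529 and 0.0530). PPARA was at -0.079 with averaged probe sets (adjusted p = 0.408).

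The remaining 4 calls among the regulators lie outside the rule for named genes and are given after their values were seen. PPARG, the receptor known for its part in fat storage, rose by 0.29 (SE 0.025, adjusted p = 0.00923) and passed with any 1 array left out. NR0B2, the repressor SHP, rose by 0.34 (adjusted p = 0.0261), NR5A2, also called LRH-1, fell by 0.28 (adjusted p = 0.0222), and CEBPA fell by 0.22 (adjusted p = 0.0424). These 3 calls each held in only 1 of the 6 fits with an array left out, with adjusted p-values up to 0.0948, 0.0720 and 0.133. With averaged probe sets NR5A2 fell by 0.45 (adjusted p = 0.00946), and without s_at and x_at probe sets CEBPA did not pass (adjusted p = 0.0511). FOXA2 and NR2F1 differed by -0.15 (95% interval -0.30 to 0.0031, adjusted p = 0.187) and -0.088 (95% interval -0.19 to 0.0100, adjusted p = 0.217). The other tested genes of these lists were not called, and their differences are in the plot of the pathway lists.

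**Figure D4:**
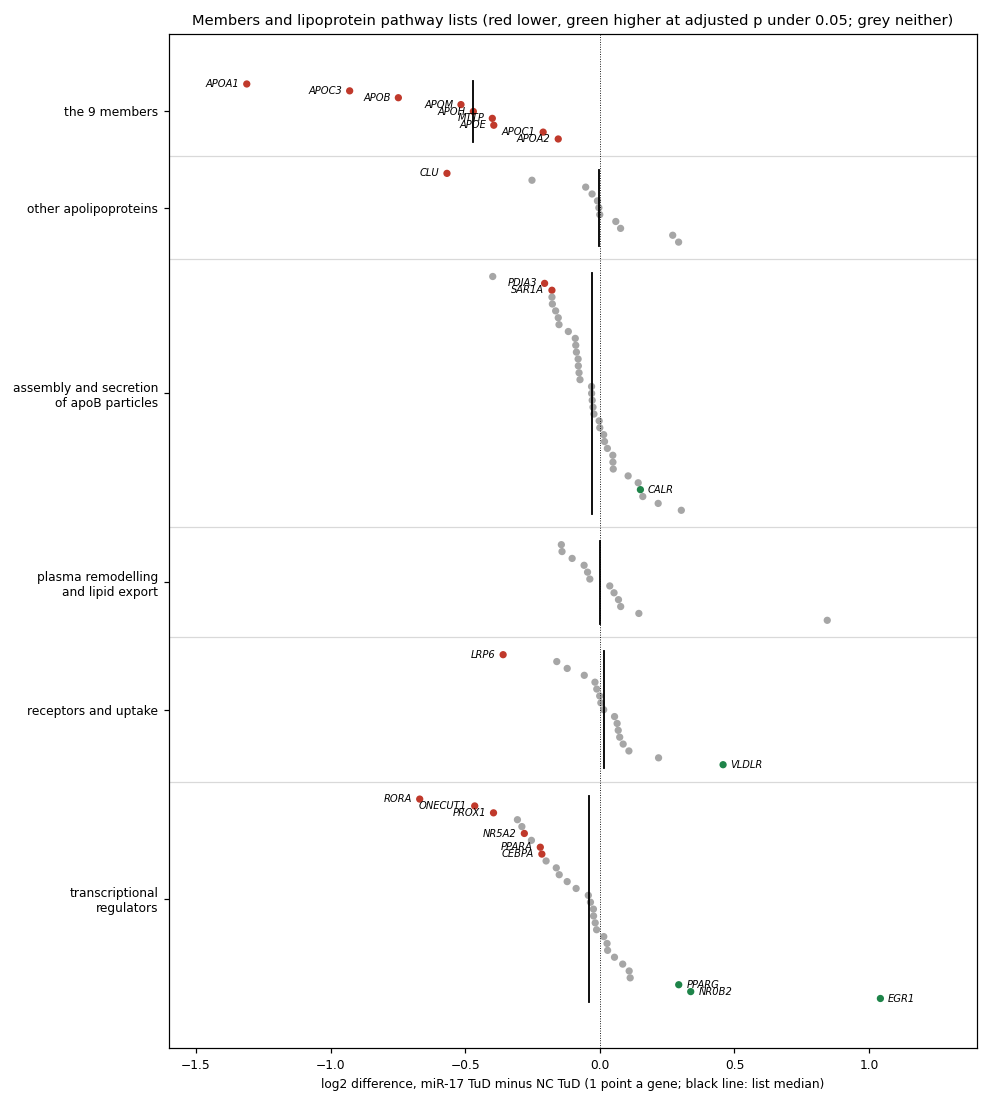
Difference between miR-17 TuD and NC TuD (log2) of each tested gene, 1 point per gene, for the 9 members and the 5 pathway lists, red for genes past the threshold and lower, green for those past it and higher, grey for the rest, with a line at the median of each list. All 9 members lie below 0, from -1.31 to -0.15, whereas the medians of the lists lie between -0.039 and 0.014.

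The falls stood beside a lower RNA level of other hepatocyte products. Of 10 markers of the hepatocyte, 9 fell and none rose (limma, adjusted p under 0.05), beside 4.6% lower and 6.78% higher over all genes. Log2 differences of the 9 ran from -1.27 for AFP to -0.064 for AMBP, with ALB at -0.21 and TF at -0.49. SERPINA1 differed by 0.13 (adjusted p = 0.0912). The mean log2 value of the 10 markers was 12.46 to 12.52 on the miR-17 TuD arrays and 13.01 to 13.07 on the NC TuD arrays. The part of this lower level in the result of the apolipoproteins was not tested. Of the intestinal markers, which would mark the other tissue that makes these proteins, 4 of 6 (FABP2, SI, CDX2 and ALPI) were at or next to the lowest value in both groups. VIL1 rose by 0.10 (limma, adjusted p = 0.0300). VIL1 and LGR5 were well expressed, at 13.27 and 10.79 in NC TuD, and LGR5 differed by -0.10 (limma, adjusted p = 0.217). The mean of the 6 intestinal markers was 5.41 to 5.43 in both groups. PTPRC, CD163, MARCO and CD5L were at or next to the lowest value among 5 measured macrophage and blood markers, as were VWF, CDH5, KDR and STAB2 among 5 endothelial ones, with mean values of 2.39 to 2.47 and 2.18 to 2.19 over the 6 arrays. COL3A1 and DCN of 6 stellate cell markers were at the same floor, and the mean of the 6 was 5.37 to 5.53 in miR-17 TuD and 5.34 to 5.36 in NC TuD, with none called. COL1A1 (12.79 against 12.45) and COL1A2 (9.35 against 8.91) were well expressed. They differed by 0.34 and 0.44 (limma, adjusted p = 0.277 and 0.193), and PDGFRB and ACTA2 by -0.082 and 0.015. Of 5 bile duct markers, SOX9 fell by 0.15 and the mean was 10.64 to 10.65 against 10.56 to 10.66. KRT7 differed by 0.35 (limma, adjusted p = 0.193). KRT19 and EPCAM, at 14.22 and 15.07 in NC TuD, differed by 0.030 and -0.033, and CFTR was next to the lowest value.

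Genes with the nearest pattern to APOA1 and to APOB were taken by the Euclidean distance between log2 profiles over the 6 arrays, each gene centred on its own mean, among 13949 genes. For APOA1 these were FGB (distance 0.20), SLC6A14 (0.23), AFP (0.32), NSUN7 (0.39) and LOX (0.43), of which NSUN7 had the lowest difference, -1.40. APOC3 was 9th and APOB 31st in that order, and the other members ran from 103rd (APOM) to 1542nd (APOA2). For APOB the nearest genes were RORA (0.12), DCP2 (0.14), MINDY2 (0.21), ID4 (0.21) and PEG3 (0.22), with differences between -0.84 and -0.60. The members ran from 89th (APOH) to 1614th (APOA2) in the order for APOB, with APOA1 at 1386th. All profiles come from the same 6 arrays, so genes with a like difference between the groups lie close by construction, and the order is a description with no test.

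Promoters were looked at because the members fell together. The RefSeq table (GRCh38.p14) held windows for 6 of the 9 genes, APOA2, APOC1, APOE, APOH, APOM and MTTP, with 9 start sites in all, each from 250 bases before to 50 after the start. Letters known from hepatocyte promoters, and TATAAA of promoters in general, were searched on both strands. The HNF1 core GTTAAT, present in 6.88% of 35116 promoters, occurred in APOH, from -49 to -44 on the gene's strand and from -210 to -205 on the other. The FOXA core TGTTTAC (3.42% of promoters) occurred in APOA2 from -42 to -36 on the other strand, and TATAAA (11.5%) in 1 of the MTTP windows from -227 to -222 on the other strand. The letters CAAAGTCCA of HNF4A (0.384%), the direct repeat of nuclear receptor sites spaced by 1 base (0.310%) and TTGCNNCAA of C/EBP (1.98%) were in none of the 9 windows, which says only that these letters are not there. No match overlapped another, and each of the 3 motifs found occurred in 1 of the 6 genes with a window. The 150 bases before the start are shown for APOH (chr17:66229416-66229565, minus strand) and APOA2 (chr1:161223629-161223778, minus strand), with the match in capitals, as the windows that held a match close to the start.
APOH: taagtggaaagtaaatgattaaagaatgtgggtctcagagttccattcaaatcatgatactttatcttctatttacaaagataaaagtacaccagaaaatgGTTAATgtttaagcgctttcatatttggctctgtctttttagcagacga
APOA2: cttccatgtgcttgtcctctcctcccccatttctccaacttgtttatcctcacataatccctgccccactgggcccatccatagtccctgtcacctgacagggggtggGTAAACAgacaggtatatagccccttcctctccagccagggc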

How the data were processed

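The deposited log2 values of 6 arrays were used as the authors gave them. RMA and GCRMA are both listed in the submitters' processing notes, without versions or roles, and the shape of the values, with many probe sets at one floor, was checked on the file only. Both methods summarise the probes of a set after background correction and quantile normalization. Which step made the floor was not tested, and values tied at it do not resolve small changes. Depth has no meaning for arrays: their number, 3 per group, limits the precision.

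Of 54675 probe sets, 62 controls were left out. Genes were named from the platform's annotation: 41091 probe sets had 1 symbol, 1801 several and 11721 none, and 41037 matched RefSeq by Entrez ID. Probe sets with a mean over the 6 arrays above the 40th percentile (2.14) were tested with limma 3.58.1 (R 4.3.3; lmFit and eBayes without trend, group as the only term, 2-sided, Benjamini-Hochberg over all tested, threshold 0.05). Gene-level values took the probe set with the highest mean among those of 1 symbol. Member p-values are from the probe-set fit unless called gene-level; pathway and marker p-values are gene-level. Single values used an exact permutation test over the arrays, with a smallest p of 0.1. The fit was tested on simulated data.

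Every member probe set is reported. From each pathway list up to 4 called genes with the largest difference are named, plus 21 genes fixed by name, of which 14 were tested. The members and lists were chosen with earlier results of these data known. Alternatives were quantile normalization, median centring, no filter, a filter at the 60th percentile, trend and robust settings, array weights, the replicate number as a block, each array left out, averaged probe sets, and no s_at or x_at probe sets.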

Additional observations from a re-analysis of the deposited data

How the results depend on the processing

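The 17 tested member probe sets stayed below 0 under the alternatives run. Counts of calls moved: over all probe sets (1910) they were 2930 with each array centred on its median (1077 lower, 1853 higher), 554 without a filter, 3271 with a filter at the 60th percentile and 145 to 1155 with 1 array left out. The 14 member probe sets called became 7 without a filter, where 54613 probe sets were tested and those of APOA2, APOB, APOM and 1 of APOE were lost, and 3 to 9 with 1 array left out. Centring ended the calls of both APOA2 probe sets. The 9 member genes became 4 to 9 with 1 array left out, and 2 of the 3 still measured without s_at and x_at probe sets. The 15 pathway genes became 8 without a filter, which ended the calls of CALR, CEBPA, NR0B2, PPARA, PROX1, SAR1A and VLDLR, 8 of 80 measured without s_at and x_at probe sets, and 4 to 10 with 1 array left out. Averaging the probe sets of a gene ended the calls of CALR (0.085), PDIA3 (-0.058), LRP6 (-0.12) and PPARA (-0.079) and left RORA at -0.33. The excess fall of APOA1 over APOA2 was -1.22 with averaged probe sets. With values that were not called, ABCG1 ran from -0.19 to 0.054 with 1 array left out, turning without miR-17 TuD replicate 1, and was 0.021 with averaged probe sets, APOA4 ran from -0.12 to 0.19, turning without NC TuD replicate 1, and TM6SF2 was 0.056 with averaged probe sets. The cause of these moves was not tested.

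The replicate numbers are shared by both groups, but the deviations of same-numbered arrays correlated at 0.040, 0.104 and 0.114, not all over 0.1, so the numbers were not taken as pairs. Each of the 6 arrays correlated best with its own number, a hint from the data and not the design. With the replicate number as a block, limma called 0 of 32768 probe sets and 0 of the 17 members (at an unadjusted p under 0.05, 3718 lower and 3770 higher, and 16 members lower), 7 member genes and 9 pathway genes.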
